A study of Vitis vinifera with 6 samples.

Results

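The 7 tandem pathogenesis-related 1 (PR1) loci on chromosome 3 of grapevine (Vitis vinifera) were followed in fully expanded leaves of the cultivar Syrah. They are VIT_03s0088g00690, VIT_03s0088g00700, VIT_03s0088g00710, VIT_03s0088g00750, VIT_03s0088g00780, VIT_03s0088g00810 and VIT_03s0088g00890. The members were chosen by locus name, with earlier results of these data known, and each had 1 probe among the 34369 probes of the array other than controls. Leaf RNA came from 3 control samples and 3 samples of CARPO overexpression, with 1 single-colour Agilent array per sample. All plants were Syrah of 1 clone raised in a greenhouse from anther callus. CARPO is a transcription factor of the NAC family, and the study asked which leaf transcripts change when it is overexpressed. Whether control plants were untransformed or carried an empty vector, the promoter of the transgene and the line behind each overexpression sample are not given in the sources used here. The controls are called C1, C2 and C3 and the arrays labelled overexpression L1, L2 and L3, after the replicate numbers in the labels.

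PR1 proteins are small secreted proteins of the CAP superfamily that gather in the leaf apoplast after attack by pathogens. In Arabidopsis the PR1 transcript is a widely used marker of salicylic acid signalling: the coactivator NPR1 acts with TGA transcription factors at the PR1 promoter when salicylic acid rises. Members of the family bind sterols, as was shown for PR1 proteins of tobacco and tomato, and PR1 genes often lie in tandem arrays of close copies. The roles of the individual grapevine copies are not annotated in the sources used here. Because the copies are related and the probe sequences were not used here, whether a probe also binds the transcript of a neighbouring copy was not tested.

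The labels and arrays were examined first. The probe of VIT_08s0007g07670, a locus taken as CARPO from knowledge outside the files, had a signal of 12.4, 50.4 and 25.3 in C1, C2 and C3 and of 10.1, 15.1 and 271 in L1, L2 and L3. It was raised in L3 and not in L1 or L2, so the word "labelled" is kept here for that group and every direction is that of the label. Whether this probe binds the transcript of the transgene was not tested. L3 stood apart from the other arrays: across 18929 probes that were clear of background on all 6 arrays and had no outlier spot, its Pearson's r with the others was 0.810 to 0.854, against 0.883 to 0.974 for pairs without it. L3 was also alone in its scan and, by the slide record, on its slide, and 6.12% of its spots were outlier spots. That record gave C1 and L2 the same position on 1 slide, so slide membership is uncertain. C1 and L1 shared scan 1, and C2, C3 and L2 shared scan 2. The array's 75th percentile of signal ranged from 668 to 1234, and the share of probes well above background from 68.4% to 74.5%. No spot of a PR1 member was an outlier or saturated (0 of 42). Levels are given either as processed signal or relative to the array's 75th percentile. A check of the tissue by leaf marker genes was not made, because no table used here gives gene names for the loci.

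The family was dim as a whole, and 1 member, VIT_03s0088g00810, carried signal in every leaf. Of the 42 member spots, 17 were well above background. VIT_03s0088g00810 was well above background on all 6 arrays, 5 members on 1 to 4 arrays, and VIT_03s0088g00690 on none. For comparison, signal on all 6 arrays was found for 62.2% of all 34369 probes. On 1 to 5 arrays it was found for 19.7%, and on none for 18.2%. No member had signal on exactly 5 arrays. By array, C1, C3, L1 and L2 each showed 2 members well above background, C2 showed 4 and L3 showed 5. In bulk leaf RNA, fewer cells of a type and less RNA per cell cannot be told apart.

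**Figure D1:**
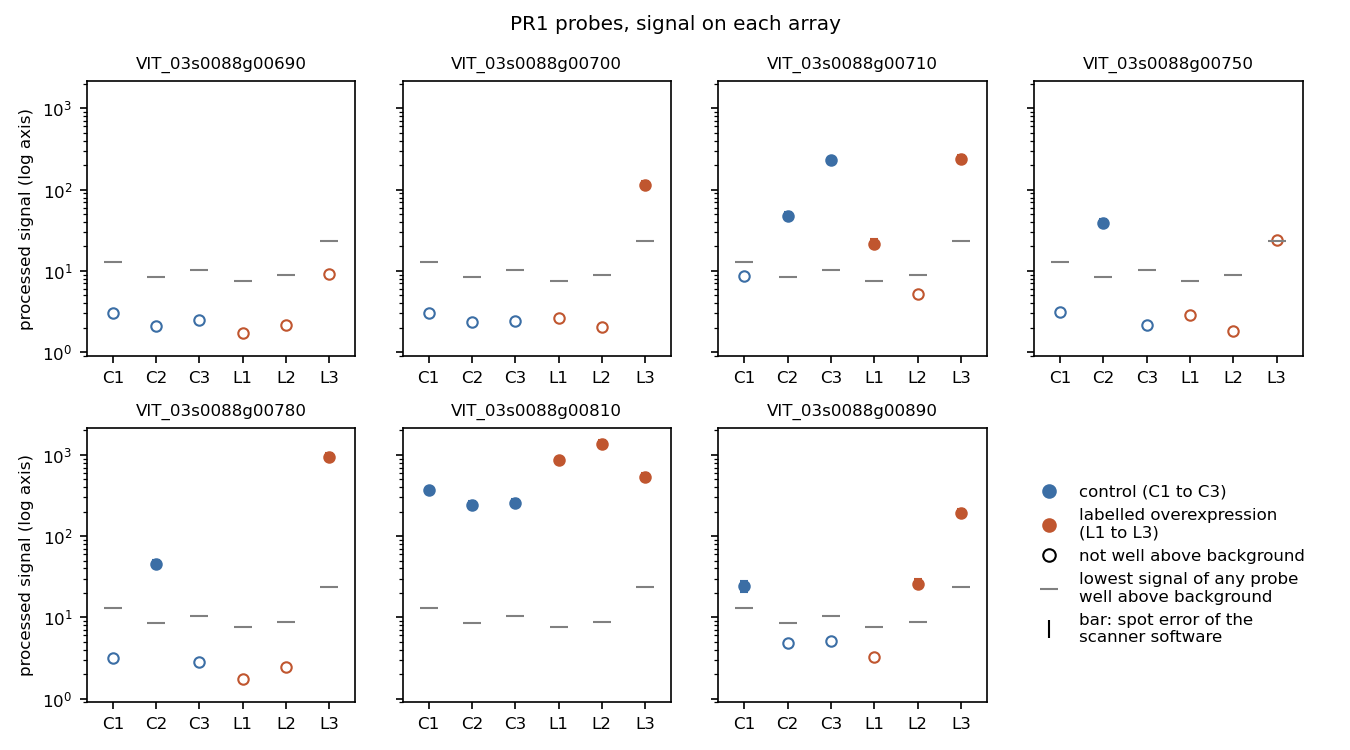
Processed signal (log axis) of each PR1 probe on the control arrays (C1 to C3) and the arrays labelled overexpression (L1 to L3). Filled points are well above background, with bars for the spot error given by the scanner software, and grey dashes mark the lowest signal of any probe well above background on that array. VIT_03s0088g00810 is filled on all 6 arrays, whereas VIT_03s0088g00700, VIT_03s0088g00780 and VIT_03s0088g00890 stand highest on L3.

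VIT_03s0088g00810 was brighter in every array labelled overexpression than in every control, but the difference did not pass the threshold over all probes. Its processed signal was 367, 243 and 258 in C1, C2 and C3 and 861, 1370 and 537 in L1, L2 and L3. The scanner software put the error of each of these spots at 10.0% of its signal. Relative to the array's 75th percentile, the level was 40.3%, 29.7% and 24.9% in the controls and 129%, 111% and 58.2% in L1, L2 and L3. L1 and L2 were thus close to each other, L3 lay between them and the controls, and the groups did not overlap. The lowest array labelled overexpression, L3, was 1.44-fold above the highest control, C1.

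On the log2 scale relative to the 75th percentile, VIT_03s0088g00810 had a mean level of -1.69 ± 0.35 (SD, n = 3) over C1 to C3 and of -0.09 ± 0.61 (SD, n = 3) over L1 to L3. The limma log2 difference was 1.60 (SE 0.38, 95% confidence interval 0.69 to 2.51), a fold of 3.03 (1.61 to 5.71). The unadjusted p of limma was 0.00498 and the adjusted p over all 23752 probes tested was 0.154, so that the threshold of 0.05 was missed. An exact two-sided permutation test over the 6 arrays gave p = 0.1, which is the smallest that 3 arrays against 3 allow. The labels call the samples biological replicates without naming the plants, so these p-values measure the spread between these samples only.

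This was the only member that met the filter for testing, and 0 of 1 passed at an adjusted p under 0.05 by limma, where 0.0800% of all probes tested did (19 of 23752). At an unadjusted p under 0.05 it was 1 of 1, against 15.1% of all probes in either direction and 5.85% in the direction of higher levels. Among all 21507 probes tested with no outlier spot, the groups did not overlap at 24.2%, and at 10.5% every array labelled overexpression was the higher. A log2 difference at least as large as that of VIT_03s0088g00810 was found at 757 of the 23752 probes (3.19%).

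**Figure D2:**
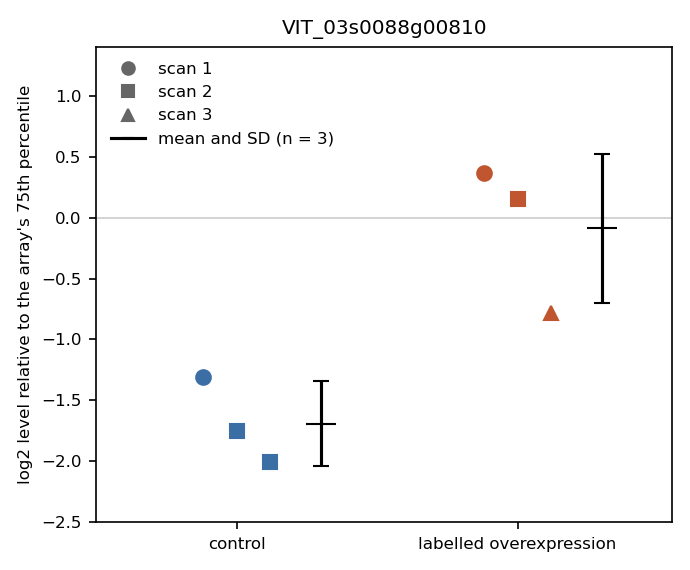
Log2 level of VIT_03s0088g00810 relative to the array's 75th percentile in the 3 control arrays and the 3 arrays labelled overexpression, with the scan given by the symbol and the mean and SD (n = 3) beside each group. All 3 arrays labelled overexpression lie above all 3 controls, and the array of scan 3 (L3) is the lowest of its group.

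The size of the difference was also read within both scans that contained both groups. Its sign there was fixed in advance, because every array labelled overexpression lay above every control. In scan 1, L1 was 3.20-fold above C1 (log2 difference 1.68, 1 array each). In scan 2, L2 was 4.08-fold above the mean of C2 and C3 (log2 difference 2.03). Scan 3 held L3 alone, which was 1.88-fold above the mean of the controls. Without L3, the log2 difference was 1.95 and the limma adjusted p 0.0669, still above the threshold. VIT_03s0088g00810 was highest in L1 and L2, where the probe taken as CARPO had signals of 10.1 and 15.1. These were near the lowest signal of any probe well above background there (7.53 and 8.895). A link between the 2 probes was not tested.

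The other 6 members were not measured on every array of either group and were not tested. VIT_03s0088g00710 varied within both groups, with a signal of 8.61, 47.8 and 232 in C1, C2 and C3 and of 21.7, 5.18 and 240 in L1, L2 and L3. C1 and L2 were not well above background. C3 and L3 were nearly equal, L3 being 1.16-fold the higher after scaling, and the groups overlapped over their whole range. Within the groups, C3 was 3.84-fold above C2 and L3 was 8.0-fold above L1. The scanner software put the error of member spots well above background at 10.0% to 15.0% of the signal, which covers the measurement of a spot and not the spread between leaves.

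VIT_03s0088g00780 showed the widest span of the family. Its signal was 45.2 in C2 and 954 in L3, and between 1.75 and 3.17 in C1, C3, L1 and L2, none of which was well above background. After scaling, L3 was 18.7-fold above C2. An excess of this size of L3 over the next highest array occurred at 0.979% of the 21045 probes that were well above background on L3 and had no outlier spot on any array, and the shares of probes for the next members are of the same set. In that leaf sample the probe reached 103% of the array's 75th percentile.

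VIT_03s0088g00890 was also highest in L3. Its signal was 24.5, 4.79 and 5.05 in C1, C2 and C3 and 3.22, 26.1 and 193 in L1, L2 and L3, with C1, L2 and L3 well above background. C1 was 1.27-fold above L2 after scaling, and L3 was 7.78-fold above C1, an excess reached by 2.40% of the probes well above background on L3. Each group thus held arrays with and without signal at this probe.

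VIT_03s0088g00700 was well above background in L3 only, with a signal of 114, against 2.05 to 2.99 on the other 5 arrays. Because those arrays give only a bound, each was set at the lowest signal of any probe well above background on it, and L3 was then at least 8.7-fold above the highest of them. An excess at least as large was found at 2.14% of the probes well above background on L3. With 1 array carrying the signal, the difference has no replicate.

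VIT_03s0088g00750 was the only member with its highest measured level in a control. Its signal was 3.12, 38.8 and 2.13 in C1, C2 and C3 and 2.86, 1.83 and 24.3 in L1, L2 and L3, and only C2 was well above background. C2 was at least 1.8-fold above the L3 level, which itself was not well above background. The lowest signal of any probe well above background was 23.45 on L3, against 7.53 to 12.92 on the other arrays. A signal such as that of L3 was thus less readily marked there, and signal at this probe in L3 is not excluded. VIT_03s0088g00690 had signals of 1.72 to 9.26, none well above background, and its level could not be compared between groups.

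Of the 5 members well above background on L3, 4 had their highest level there (VIT_03s0088g00700, VIT_03s0088g00710, VIT_03s0088g00780 and VIT_03s0088g00890). Many probes outside the family were also highest on that array. Of the 21045 probes well above background on it and free of outlier spots on every array, 35.5% were highest there. The share was 8.56% to 20.5% for the probes chosen in the same way on each other array. Without L3, VIT_03s0088g00700 was well above background on none of 5 arrays, VIT_03s0088g00780 on 1, VIT_03s0088g00890 on 2 and VIT_03s0088g00710 on 3. L3 also had the raised signal at the probe taken as CARPO, its own slide and scan, and the most outlier spots. The part of these in the PR1 values was not tested, and with 1 array on that slide and scan they cannot be told apart from the leaf sample.

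A second array, C2, shared the signal at VIT_03s0088g00780 with L3, at a lower level. C2 was the only array besides L3 with VIT_03s0088g00780 well above background and the only one with VIT_03s0088g00750 well above background. The signals there were 45.2 and 38.8. VIT_03s0088g00700 and VIT_03s0088g00890, which were highest on L3, were not well above background on C2. C1 and C3 had neither VIT_03s0088g00780 nor VIT_03s0088g00750 well above background.

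The deposited processed table held 2 of the 7 members, VIT_03s0088g00710 and VIT_03s0088g00810, and its L3 column differed from the scanner file. In 5 of its columns the values of these probes equalled the scanner signal brought to a common 75th percentile of about 936.2, within 0.076%. In the L3 column the table gave 13.23 for VIT_03s0088g00710, where the scanner file gave 243.5 on the same scale, and 1098.26 for VIT_03s0088g00810, where the scanner file gave 544.4. The mean of the L1 and L2 signals, divided by their average 75th percentile and brought to that scale, came to 13.23 and 1098.36. For both probes the L3 column of the table was thus within 0.038% of that mean and not near the scanner file of L3.

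With the table in place of the scanner files, the limma log2 difference of VIT_03s0088g00810 was 1.94 (SE 0.20, adjusted p 0.00764), past the threshold. It was among the 13.5% of the table's 23065 probes that passed. At both member probes the L3 value of the table follows from L1 and L2 and is not a separate measurement. The SE and p of this fit thus count a derived value as a replicate. Without the L3 column the log2 difference of VIT_03s0088g00810 was 1.95 with a limma adjusted p of 0.0665, again short of the threshold. VIT_03s0088g00710 had a log2 difference of -2.00 in the table (SE 1.29, limma adjusted p 0.337), while in the scanner files L3 was its brightest array.

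**Figure D3:**
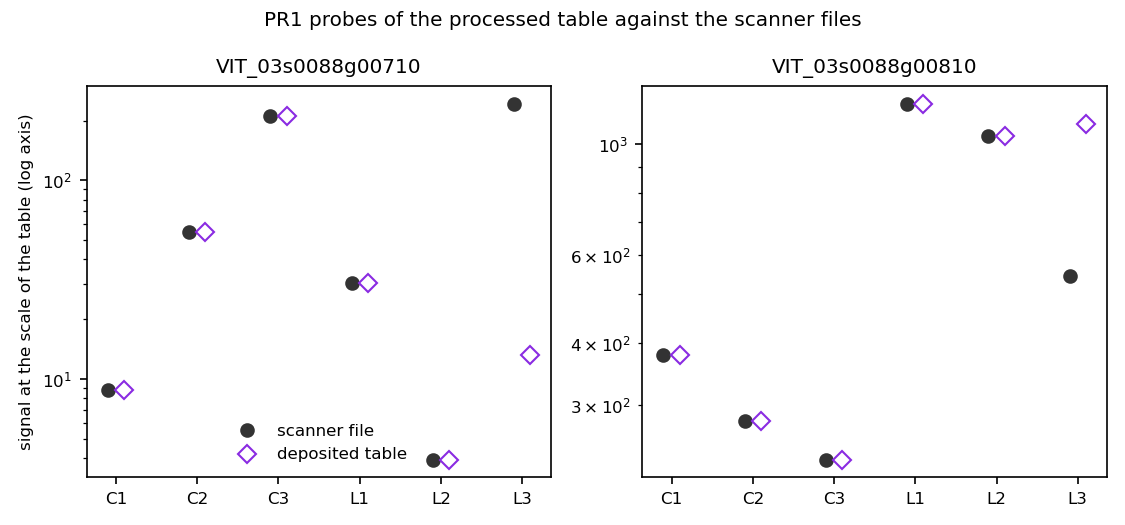
Signal of VIT_03s0088g00710 (left) and VIT_03s0088g00810 (right) on each array (log axes of different range), from the scanner files brought to the scale of the deposited table (filled circles) and from the table itself (open diamonds). The circles and diamonds coincide except on L3, where the table gives 13.23 against 243.5 and 1098.26 against 544.4.

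The other loci whose names start VIT_03s0088g, which share the scaffold number with the members, were used as a local comparison. Of these 95 probes, 52 gave signal well above background on every array and 60 were tested. None passed at an adjusted p under 0.05 by limma (0 of 60), and 10 had an unadjusted p under 0.05, 2 of them higher and 8 lower in L1 to L3 than in C1 to C3. This was near the 15.1% of all probes tested, of which 1389 were higher and 2188 lower at that p. Their median log2 difference was -0.15, with a range of -2.88 to 2.81, where the median of all probes tested was 0.0038. One of them (1 of 60) had a difference as large as that of VIT_03s0088g00810. The 7 loci numbered between the first and last member that are not members had 4 tested probes, with log2 differences of -0.78 to 0.46 and none (0 of 4) at an unadjusted p under 0.05 by limma.

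**Figure D4:**
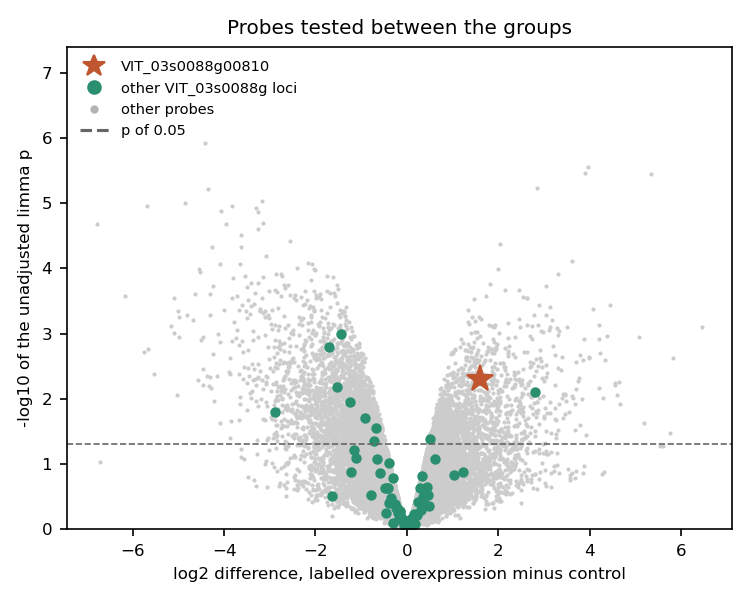
Log2 difference (labelled overexpression minus control) against -log10 of the unadjusted limma p for the 23752 probes tested, with VIT_03s0088g00810 as a star and the 60 tested probes of other VIT_03s0088g loci in green. The star, at a difference of 1.60, lies above the dashed line within a cloud of other probes of similar size.

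The probes whose pattern was most like that of VIT_03s0088g00810 were sought by the root mean square difference over the 6 arrays between log2 profiles centred on their own means. Among 17737 VIT probes measured on all 6 arrays without an outlier spot, the nearest was VIT_06s0061g01430, at 0.285, with a log2 difference of 1.50 (SE 0.24, limma adjusted p 0.0965). The next was VIT_08s0056g00180, at 0.292, with a log2 difference of 1.34 (SE 0.35, limma adjusted p 0.176). The median distance of all these probes was 0.981. The nearest probe and the next were picked for likeness to VIT_03s0088g00810, so a difference of similar size follows from the choice. No other PR1 member was measured on all arrays, so none could be ranked by this distance. The loci are given as locus names, which no table used here links to genes.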

How the data were processed

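Per the file headers, the authors' intensity values come from Agilent Feature Extraction 10.5.1.1, and that software corrected background and spatial trend within an array but did not scale between arrays. A table of processed intensity values was also deposited; how it was made is not given in the sources used here. The deposited 0 or 1 marks of each spot (outlier, saturated, well above background) were used as given. Here each signal was divided by its array's 75th percentile and put on the log2 scale. Outlier spots were treated as missing, with at least 2 usable spots per group. A probe was tested when well above background on every usable array of at least 1 group, and limma 3.58.1 (R 4.3.3) compared the groups, with Benjamini-Hochberg adjustment over all 23752 probes and a threshold of 0.05. The fit was tested on simulated data. The number of arrays limits the precision.

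The members and lists were chosen with earlier results of these data known. The named probes were the 7 members, other VIT_03s0088g loci as counts, the 2 most alike probes and the locus taken as CARPO. None of the 29798 VIT loci (0) was in the reference gene table, so no other gene of the salicylic acid pathway was named, and the planned lists by gene name were not run. No genome position or sequence is given. The slide record gave C1 and L2 the same position, so scan was taken as the technical batch for the differences within scans. The main fit had no batch term, and scan and slide entered as blocks only in the alternatives. L3 was alone in its scan and, by the slide record, on its slide. With either block the difference therefore came from L1 and L2 against the controls, and these fits do not adjust L3 for batch. Normexp (offset 50) used the median spot signal.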

Additional observations from a re-analysis of the deposited data

How the results depend on the processing

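VIT_03s0088g00810 kept its positive difference in all 21 alternatives (1.17 to 1.95, main 1.60) and passed the threshold in 1 of them. Every array labelled overexpression lay above every control. Leaving out an array, adding a block or changing the filter, variance or weights therefore could not reverse the sign. With the deposited processed table the log2 difference was 1.94 (limma adjusted p 0.00764) and 1 member instead of 0 passed. The L3 column of that table follows from L1 and L2 at the member probes, so this p counts a derived value as a replicate. In the other alternatives the limma adjusted p was above 0.05 and 0 members passed, while 1 had an unadjusted p under 0.05 in each. Leaving out 1 array at a time gave 1.37 to 1.95, with limma adjusted p of 0.0669 to 0.476, and 0 to 116 probes past the threshold over all probes. Normexp with quantile normalization gave the smallest difference, 1.17 (limma adjusted p 0.161). Scan or slide as a block left out L3 and gave 1.88 (limma adjusted p 0.0669) and 1.95 (0.0661), and array weights gave 1.86 (0.0604). The replicate number as a block gave 1.60 (limma adjusted p 0.257). Deviations from the group means correlated at 0.253, 0.0499 and -0.0149 (18929 probes) between arrays of the same number, and at -0.329 to 0.283 between others. C1 and L1 also shared a scan, as did C2 and L2. Whether samples of the same number were paired cannot be told from these values. Over all probes, 19 passed in the main setting, against 3114 with the processed table, 94 with that table without L3, 123 with array weights, 87 with normexp, 69 with slide and 45 with scan as a block, 7 with the filter on all 6 arrays, and 0 without a filter or with the replicate block (3404 and 3094 unadjusted). Scanner values at the table's probes, an alternative chosen after seeing the data, gave 22. Without the filter on dim probes all 7 members were tested, and the limma adjusted p of the other 6 was 0.799 to 0.951. With the deposited table, with or without L3, and without C1, L1 or L2, 2 members were tested, and the one besides VIT_03s0088g00810 did not pass. Of the spots of the 6 members, 25 of 36 were not well above background, which limits what can be read from them.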
